A study of Mus musculus with 18 samples.

Results

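The comparison described here set 3 H3K4me3 libraries from Tet1 HxD homozygous fetal male germ cells against 3 from wild type cells, which are 6 of the 18 samples of the series and 6 of its 9 H3K4me3 samples. They were chosen by their labels: genotype Tet1 HxD/HxD (HxD below) or Tet1+/+ (WT below) and an H3K4me3 antibody (Cell Signaling Technology). The series studied prospermatogonia of the mouse fetus at E17.5, shortly before birth, sorted as positive for an Oct4-GFP reporter that all groups share, stored frozen, and profiled from 4000 nuclei a library by CUT&RUN, in which an antibody tethers a nuclease that cuts out the marked chromatin. Each genotype had 3 biological replicates per the design text, and every sample carries the same batch label. The third genotype, the Tet1-/- knockout (KO), is used here only as a side value. The question in the series title is how TET1 shapes chromatin apart from its catalysis.

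TET1 is a dioxygenase that oxidises 5-methylcytosine, and it also binds CpG-rich promoters and partner complexes such as SIN3A, OGT and Polycomb. The HxD allele alters the iron-binding motif of the catalytic domain, so that the protein is made but does not oxidise. H3K4me3 marks active and poised promoters, its breadth varies between genes, and it repels the DNMT3 enzymes that lay down DNA methylation in prospermatogonia before birth. In these cells germline and housekeeping promoters are active, while many developmental regulators carry both H3K4me3 and the Polycomb mark H3K27me3.

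Each library came as 1 list of peaks, which gives the place, the length and the rank of each peak in its list. The deposited lists held 95523, 83586 and 128701 peaks in WT and 67925, 49624 and 62247 in HxD on the autosomes, X and Y. Every list was therefore cut to its 49624 peaks with the highest −log10 q. The weakest peak kept then had a −log10 q of 9.48, 7.99 and 17.7 in WT and of 6.99, 2.01 and 5.52 in HxD. The cut thus removed many more WT peaks than HxD peaks, and the number of peaks called in a list moves with every difference reported here; its part in them was not tested. Values per list, counts of calls and gene list medians whose direction or call differs in the lists as deposited are given with both values. Most single genes and regions are given in the cut lists only. A promoter peak is a peak within 1 kb of the start of a coding gene, breadth is the covered length within 5 kb of that start, and rank is the percentile, from 0 to 100, of the strongest promoter peak by the authors' fold enrichment within its cut list, with 0 for no peak. Of the coding genes, 15035 had such a peak in 3 or more of the 6 lists and entered the tests of breadth and rank.

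Germ cell identity was checked against 12 marker genes, of which 8, 8 and 6 had a promoter peak in the WT lists and 10, 10 and 8 in the HxD lists. Of 17 Sertoli cell markers 11 to 12 had one in WT and 12 to 14 in HxD. Of 18 Leydig and interstitial markers 10 to 13 had one in WT and 10 to 13 in HxD, and of 16 endothelial and blood markers 5 to 8 and 6 to 7. Poised promoters carry this mark too, so peaks at markers of other cell types do not count those cells, and fewer marked cells cannot be told apart from less mark per cell.

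In lists of equal length, HxD peaks lay more often at promoters and less often between genes. Promoter peaks made up 26.3%, 26.5% and 26.4% of the WT lists (mean 26.4% ± 0.0961 SD, n = 3) and 29.2%, 30.4% and 30.3% of the HxD lists (30.0% ± 0.665, n = 3). Intergenic peaks made up 51.9% ± 0.240 in WT and 46.8% ± 1.45 in HxD. The groups did not overlap for either class. Each difference had an exact two-sided permutation p of 0.1, the smallest that 3 against 3 libraries allow, and 0.175 after Benjamini-Hochberg adjustment over the 14 list values compared. Gene body peaks made up 21.8% ± 0.266 and 23.3% ± 1.21, with overlapping ranges (exact p = 0.2).

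**Figure D1:**
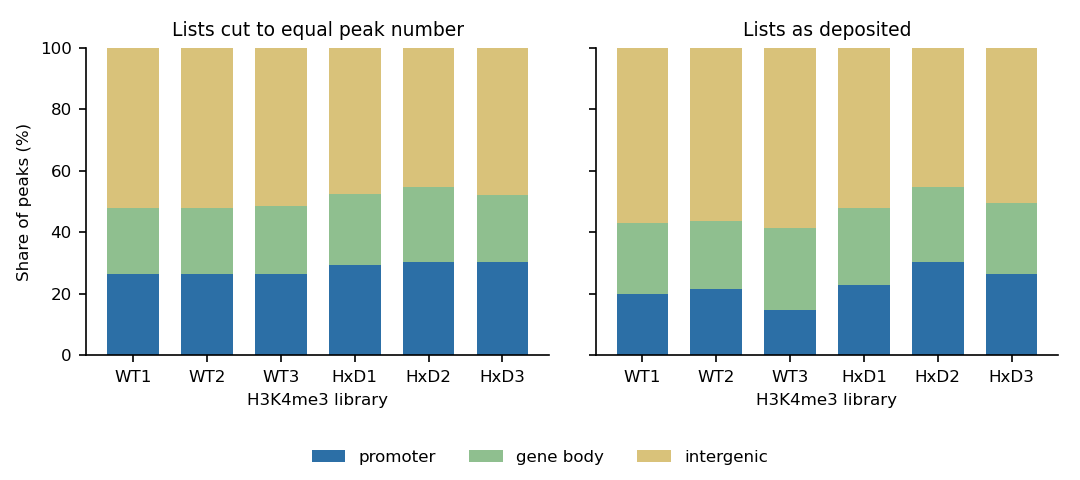
Share of peaks (%) at promoters, in gene bodies and between genes in each H3K4me3 library, for lists cut to equal peak number (left) and as deposited (right). Promoter shares are 26.3% to 26.5% in WT and 29.2% to 30.4% in HxD in the cut lists.

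In the cut lists the intergenic peaks also differed in length. Intergenic peaks covered 26.5, 25.6 and 29.5 Mb in WT but 21.1, 13.9 and 17.4 Mb in HxD, and their median length was 963, 932 and 1087 bp against 805, 506 and 642 bp. Gene body peaks had median lengths of 1019, 991 and 1167 bp in WT and 886, 549 and 704 bp in HxD. All HxD libraries lay below all WT libraries in these 3 values (exact p = 0.1 each). The difference in median length depended on the cut: in the lists as deposited it was 638 bp ± 56.0 against 563 bp ± 63.9 between genes (exact p = 0.2) and 644 bp ± 120 against 609 bp ± 69.5 in gene bodies (exact p = 0.7), and in both the ranges overlapped. They also overlapped at equal covered length (exact p = 0.2 and 0.3). Promoter peaks did not share this: their median length was 1509 bp ± 203 in WT and 1558 bp ± 250 in HxD (exact p = 0.7). HxD replicate 2 had the shortest peaks outside promoters and is also the list that set the length of the cut.

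Rank within the list differed by class. The median promoter rank over all tested genes was 48.9, 53.8 and 50.6 in the WT lists and 80.2, 82.0 and 74.1 in the HxD lists (51.1 ± 2.5 against 78.8 ± 4.17, exact p = 0.1). The median intergenic region ranked at 40.4 ± 1.90 in WT and 28.8 ± 2.88 in HxD, again with no overlap. At equal covered length that order was not seen (31.5 ± 7.03 and 28.2 ± 17.7, exact p = 1). Gene body regions ranked at 37.8 ± 0.589 and 38.1 ± 1.76 (exact p = 0.9). With 25000 peaks they ranked lower in each HxD library, at 29.2 ± 1.1 and 26.2 ± 2.3 (exact p = 0.1). Lists of equal covered length held 29693 to 35735 peaks in WT and 29420 to 49624 in HxD, so their ranks are not strictly comparable. Ranks in the lists as deposited come from lists of unequal length too and are not compared in this section. In an HxD list the median tested promoter thus stood in the upper part of the order, and in a WT list at its middle. More genes had a promoter peak in the cut HxD lists, so the filter of 3 lists favours genes that are high there.

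**Figure D2:**
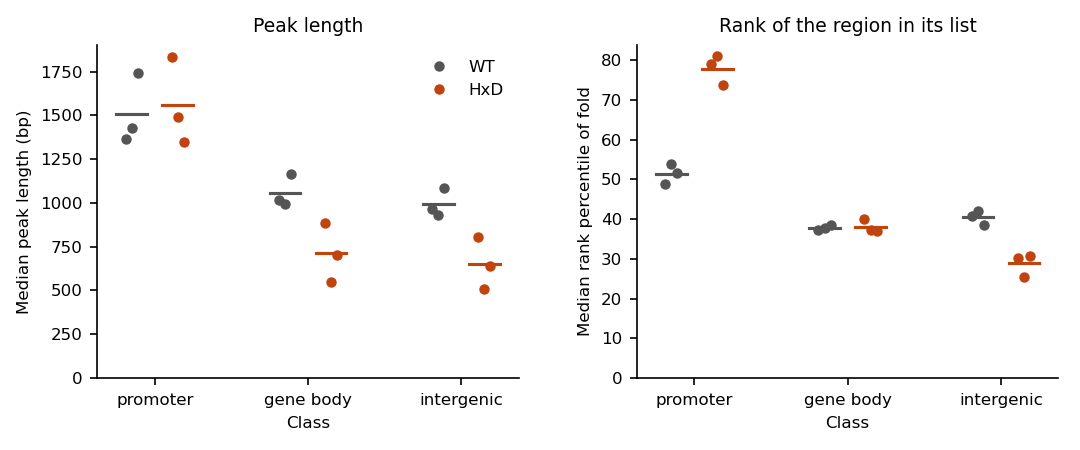
Median peak length in bp (left) and median rank percentile of fold enrichment (right) by class in lists cut to equal peak number; each point is a library and each bar a group mean. HxD promoters rank above all WT promoters, and HxD gene body and intergenic peaks are shorter than in every WT library.

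Cut lists marked more genes in HxD: 12443, 12702 and 12996 coding genes had a promoter peak in WT and 14796, 14822 and 14312 in HxD (exact p = 0.1). The direction reversed in the lists as deposited, with 15650 ± 394 in WT and 15076 ± 290 in HxD. The promoter share itself kept its direction there (18.6% ± 3.55 in WT, 26.6% ± 3.77 in HxD), as did the intergenic length (44.5 Mb ± 9.45 against 20.5 Mb ± 6.42). How many promoters were marked therefore depends on the cut.

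The 6 promoters below are shown because the gene results turn on them: the first 4 had broader H3K4me3 in every HxD list, the last 2 had a peak in every WT list and none in HxD. They are the RefSeq promoter windows of GRCm38.p6, 250 bases before to 50 after the gene start on the gene's strand, with each CpG dinucleotide in capitals. The letters CG, which read the same on both strands, occur in 94.6% of all 32851 RefSeq promoter windows, with a median of 7 per window, and in the windows of the tested genes with a median of 21.
Ncor1: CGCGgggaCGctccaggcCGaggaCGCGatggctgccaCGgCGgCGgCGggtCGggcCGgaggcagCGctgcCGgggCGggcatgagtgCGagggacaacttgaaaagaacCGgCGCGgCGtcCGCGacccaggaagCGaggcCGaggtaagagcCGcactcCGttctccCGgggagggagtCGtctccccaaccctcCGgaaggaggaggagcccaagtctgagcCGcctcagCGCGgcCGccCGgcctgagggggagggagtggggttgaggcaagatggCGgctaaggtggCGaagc
Cited1: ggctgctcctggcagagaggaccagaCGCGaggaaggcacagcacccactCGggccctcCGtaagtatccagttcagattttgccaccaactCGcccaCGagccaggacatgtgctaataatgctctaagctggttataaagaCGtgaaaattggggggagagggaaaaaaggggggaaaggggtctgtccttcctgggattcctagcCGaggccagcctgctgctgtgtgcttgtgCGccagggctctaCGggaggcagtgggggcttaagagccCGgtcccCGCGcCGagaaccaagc
Nanog: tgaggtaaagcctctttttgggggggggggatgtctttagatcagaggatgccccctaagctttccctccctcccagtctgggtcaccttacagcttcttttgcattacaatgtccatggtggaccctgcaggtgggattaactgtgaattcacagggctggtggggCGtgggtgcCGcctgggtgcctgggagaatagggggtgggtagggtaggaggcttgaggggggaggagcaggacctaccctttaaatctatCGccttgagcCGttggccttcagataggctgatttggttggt
Rps24: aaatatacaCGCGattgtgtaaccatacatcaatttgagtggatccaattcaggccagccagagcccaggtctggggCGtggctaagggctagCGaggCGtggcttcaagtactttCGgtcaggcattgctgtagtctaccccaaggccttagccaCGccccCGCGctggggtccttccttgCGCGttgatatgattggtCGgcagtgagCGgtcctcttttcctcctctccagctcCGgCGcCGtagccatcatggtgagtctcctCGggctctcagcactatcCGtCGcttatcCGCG
Tm4sf4: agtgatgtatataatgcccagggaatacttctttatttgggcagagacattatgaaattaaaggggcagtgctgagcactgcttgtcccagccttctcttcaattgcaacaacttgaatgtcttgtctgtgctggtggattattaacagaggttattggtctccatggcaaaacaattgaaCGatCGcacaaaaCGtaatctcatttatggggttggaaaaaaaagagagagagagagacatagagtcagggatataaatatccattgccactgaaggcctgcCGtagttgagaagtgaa
Prok1: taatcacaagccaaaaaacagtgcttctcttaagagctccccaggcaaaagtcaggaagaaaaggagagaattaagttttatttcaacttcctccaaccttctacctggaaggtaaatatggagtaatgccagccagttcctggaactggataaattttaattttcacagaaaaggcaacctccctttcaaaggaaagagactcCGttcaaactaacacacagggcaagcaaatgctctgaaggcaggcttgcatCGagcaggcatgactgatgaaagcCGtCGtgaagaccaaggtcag

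The first 4 windows hold 36 CpG (Ncor1, chr11:62457283-62457582, minus strand), 14 (Cited1, chrX:102251794-102252093, minus strand), 4 (Nanog, chr6:122707315-122707614, plus strand) and 21 (Rps24, chr14:24490503-24490802, plus strand). The last 2 hold 4 each (Tm4sf4, chr3:57425160-57425459, plus strand, and Prok1, chr3:107238603-107238902, minus strand). CpG number did not separate these 6 windows, since Nanog holds as many as Tm4sf4 and Prok1. Promoters whose breadth was higher in all HxD than in all WT libraries held a median of 24 CpG (1329 with a sequence), and those lower in all HxD held 13 (810 with a sequence), beside 21 for all tested genes.

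Breadth differed past the threshold at 1 shared promoter. Ncor1, a corepressor that recruits histone deacetylase, and Pigl, an enzyme of GPI anchor synthesis, start from the same region and share 1 peak. It covered 0, 0 and 0 bp in the cut WT lists and 3013, 3494 and 3153 bp in HxD. The difference was 3220 bp ± 313 (SE; limma, Benjamini-Hochberg adjusted p = 0.0417). These were the 2 genes called broader, 0.0133% of those tested, and 0 were called narrower (0%). Unadjusted p lay under 0.05 for 1444 broader and 431 narrower genes (9.6% and 2.87%). With the KO libraries added to the fit the adjusted p was 0.00460, and it lay between 0.00460 and 0.631 over the alternatives. In the lists as deposited the region covered 2513 bp ± 1090 in WT and 3220 bp ± 247 in HxD, and the call was lost. Leaving out any 1 library also ended the call (adjusted p 0.0973 to 0.497). KO libraries, compared with the same WT libraries, covered 3286 bp ± 275. WT peaks were thus called there but lay below the cut.

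The 8 next broader promoters all had an adjusted p of 0.11 and were not called. Cited1, an X-linked coactivator, covered 0, 0 and 0 bp in WT and 3368, 2865 and 2324 bp in HxD. Cdc42bpa, a kinase of the cytoskeleton, covered 548, 0 and 0 bp and then 2726, 2633 and 3182 bp. Gphn encodes gephyrin, the scaffold of inhibitory synapses, and Hadh and Pcnx were covered in no cut WT list. Rest, the repressor of neuronal genes, covered 568, 1183 and 1368 bp in WT and 3683, 3877 and 3914 bp in HxD, and Ing1, a reader of H3K4me3, 923, 1937 and 1509 bp against 4520, 4218 and 4445 bp. All HxD libraries exceeded all WT libraries at each of these genes, a pattern found at 10.8% of tested genes, while the reverse was found at 7.11%. The differences at these broader promoters were smaller in the lists as deposited: Cited1 covered 1785 bp ± 638 in WT and 3062 bp ± 853 in HxD, Hadh 1007 bp ± 451 and 2089 bp ± 263, and Rest 3445 bp ± 625 and 4277 bp ± 660. The median difference over all tested genes was 184 bp.

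**Figure D3:**
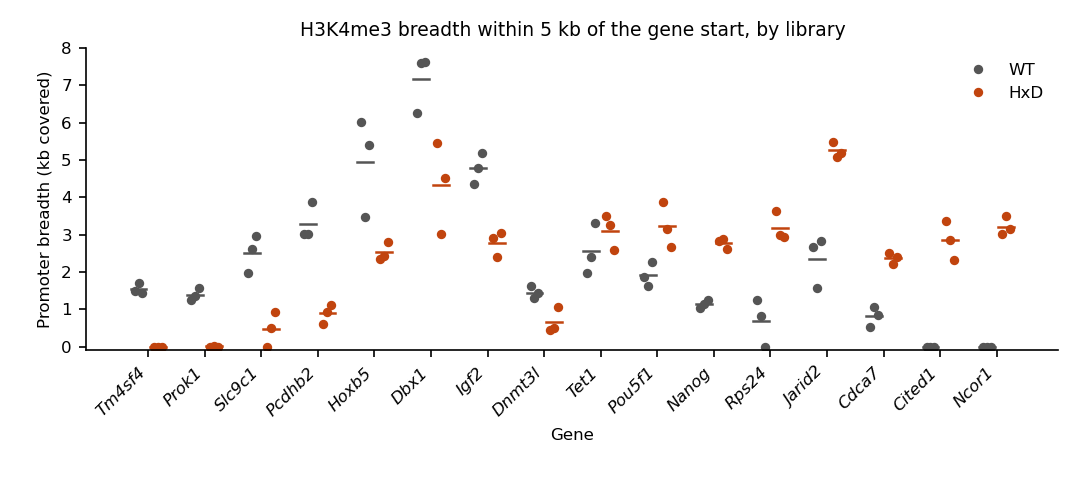
H3K4me3 breadth (kb covered within 5 kb of the gene start) in each cut list for 16 named genes; points are libraries and bars group means. Tm4sf4, Cited1 and Ncor1 are covered in all cut lists of one genotype and in none of the other.

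The promoters with the smallest p among those narrower in HxD were the following. Tm4sf4, a tetraspanin-like membrane protein, covered 1491, 1702 and 1431 bp in WT and 0, 0 and 0 bp in HxD (1541 bp ± 142 against 0). Prok1, a secreted prokineticin, covered 1252, 1352 and 1560 bp against 0, 14 and 0 bp. Slc9c1, a sodium-proton exchanger of sperm, covered 1968, 2628 and 2974 bp against 0, 487 and 927 bp. Espn, an actin bundling protein of hair cells and Sertoli cells, covered 2978, 2385 and 2992 bp against 979, 1082 and 1027 bp, and Prnd, the prion-like doppel gene, 3059, 3045 and 2409 bp against 1316, 767 and 951 bp. The protocadherins Pcdhb2, Pcdhb4, Pcdhb21 and Pcdhb22 and the receptor Olfr48 completed the 10 with the smallest p. None was called (adjusted p 0.117 to 0.126). As deposited, the lists covered Tm4sf4 by 1541 bp ± 142 in WT and 252 bp ± 436 in HxD, and Prok1 1581 bp ± 240 and 116 bp ± 189. In KO they covered 126 bp ± 218 and 229 bp ± 397.

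Presence gave a short WT list and a long HxD list in the cut lists and the reverse in the lists as deposited. A promoter peak in every WT and no HxD list was found for 29 of 15852 marked genes (0.183%), and in every HxD and no WT list for 214 (1.35%). The counts as deposited were 117 and 10. Without any 1 library they were 50 to 61 and 240 to 575. The 29 had a median of 3.5 CpG in their promoter window (20 with a sequence), the 214 a median of 20 (175 with a sequence). Of the 29, 17 had no promoter peak in any HxD list as deposited; among them were Crisp2, a sperm acrosomal protein, Tekt3, a tektin of the sperm flagellum, Ppy, the pancreatic polypeptide, Sbk3, Slc9c1, Atp13a4, Skint1, the olfactory receptors Olfr69 and Olfr978, and the protocadherins Pcdha7 and Pcdhb5. Of the 214, 208 had a peak in at least 1 and 130 in all 3 WT lists as deposited. The 6 with none were Angptl2, Usp11 and Dnajc5 and 3 genes of 1 chromosome 11 locus, Eif4enif1, Sfi1 and the predicted gene Gm51877. Most promoters of the HxD list therefore had a WT peak below the cut, and 17 of the 29 had no peak in any deposited HxD list. These counts cannot be set against each other. The cut removed no peak from HxD replicate 2 and fewer from the other HxD lists than from any WT list, so HxD had less below the cut.

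The 214 included some genes known from pluripotent or germ cells, picked here for that role and not counted against the rest. Nanog, a pluripotency factor that is also expressed in early germ cells, covered 1035, 1137 and 1257 bp in WT and 2838, 2895 and 2617 bp in HxD (1143 bp ± 111 against 2783 bp ± 147, adjusted p = 0.117). Lefty1, a Nodal antagonist, covered 0, 1237 and 1674 bp against 3310, 4817 and 1900 bp. Dppa2, a pluripotency factor, covered 0, 0 and 0 bp against 1966, 1101 and 1124 bp, and the X-linked Rhox13, a homeobox gene of fetal male germ cells, 0, 0 and 0 bp against 1165, 1584 and 689 bp. Among the members with the longest breadth were Barx1, Lefty1, Ncor1 with Pigl, Cxxc4, Rps24 and Zswim8. Others were the synaptonemal complex gene Syce1 and the H3K9 methyltransferase gene Setdb1. The groups overlapped at Barx1 in breadth. In the lists as deposited the direction reversed at Barx1 (4974 bp ± 1079 in WT, 4654 bp ± 1335 in HxD) and at Cxxc4 (3800 bp ± 350 in WT, 3199 bp ± 702 in HxD).

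Rank alone gave no call in either direction (0 of 15035 genes, 0%), with unadjusted p under 0.05 for 2223 higher and 141 lower genes (14.8% and 0.938%). A test on simulated rank values recovered 0% of rank shifts of 80 percentiles at 15035 genes, so the lack of a call carries no information on shifts of that size. The median rank difference over all genes was 21.6. Genes ranked higher in all HxD than in all WT libraries were 22.9% of those tested and lower 1.97%. The lowest were Prok1, at ranks 90.3, 72.6 and 94.5 in WT and 0, 0 and 0 in HxD, the olfactory receptors Olfr91 and Olfr69, Hjv, A26c3, the glutamate receptor Grm5, Gna15, Pcdha7, Snai3 and Crisp2. The highest were Golga2 and Swi5, which share a start (0, 0 and 0.740 against 97.4, 98.3 and 91.6), Zfp598, Dnajc5, the neighbours Paf1 and Med29, Pcnx, Zswim8, Ube4b and Lnpep. The adjusted p of these 20 genes lay between 0.243 and 0.258.

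Gene families were read against these shifts of the whole gene set. Each of 27 lists is given by its tested members, by how many lay below or above all WT libraries in all 3 HxD libraries, and by its median difference, beside 7.11%, 10.8% and 184 bp for all tested genes. No member of any list was called in breadth or rank. Of the 27 lists, 18 kept the side of the whole gene set on which their median breadth difference lay under each of 15 other settings, and 9 did not: forkhead, Sox with T-box and Gata, protocadherin, Zfp, meiotic, piRNA, prospermatogonial and maternally imprinted genes and germ cell markers.

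Hox genes, the clustered regulators of body axis identity that are poised in germ cells, had the lowest median breadth difference of the 27 lists, while the share below every WT library was higher for olfactory receptors. All 39 were tested, 35 had a lower mean breadth in HxD, 12 lay below every WT library (30.8%) and 0 above. Their median breadth was 3648 bp in WT and 2582 bp in HxD, and the median of their differences was -820 bp, against 184 bp for all genes. By library the Hox median was 3216, 3328 and 4540 bp in WT and 3220, 2427 and 2159 bp in HxD, so HxD replicate 1 lay within the WT range. Hoxd12 covered 5174, 5482 and 5871 bp against 4031, 3192 and 2952 bp, and Hoxd4 2996, 1848 and 2523 bp against 917, 166 and 1152 bp. Hoxb5 covered 6014, 3462 and 5409 bp against 2359, 2438 and 2792 bp, with part of that length shared with its neighbour Hoxb6. Neighbouring Hox starts share windows, so these members are not independent.

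Other regulators of tissue identity lay on the same side in breadth. Of 113 other homeobox and Pax genes 17 lay below every WT library (15.0%) and 2 above, with a median difference of -472 bp. Msx1, a limb and craniofacial factor, covered 7286, 6935 and 7143 bp in WT and 5261, 4254 and 3851 bp in HxD, and Dlx1, a forebrain factor, 6059, 5356 and 5546 bp against 4019, 1923 and 3301 bp. The spinal cord factor Dbx1 covered 6263, 7601 and 7623 bp against 5449, 3007 and 4531 bp. Pou4f1 and Barx2 were the 2 exceptions, Pou4f1 with 1996, 2189 and 2464 bp against 4676, 3454 and 3434 bp. Of 39 tissue-specific bHLH genes 6 lay below and 0 above (median -278 bp), among them the neural Atoh1 (3771, 4020 and 3985 bp against 3074, 2660 and 2945 bp), the pancreatic Ptf1a and the muscle factor Myog. Of 60 Wnt, Bmp, Fgf and hedgehog ligands 9 lay below and 1 above (median -54.7 bp). Wnt10b covered 4853, 4739 and 5999 bp against 3399, 2432 and 3017 bp, and Gdf11 was the 1 above. Rank did not fall in these lists but rose less than the 21.6 of all tested genes. Its median difference was 5.66 for Hox, 9.22 for other homeobox and Pax, 3.97 for bHLH genes and 11.8 for the ligands. In rank 2 Hox genes lay above every WT library and 3 below, and 14 other homeobox and Pax genes above and 5 below. For bHLH genes these counts were 5 and 2, and for the ligands 11 and 1.

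A pair of developmental families did not follow in the cut lists. Relative to all genes their median breadth differences were -30.3 bp (forkhead) and -48.2 bp (Sox, T-box and Gata) there. In the lists as deposited they were -294 and -359 bp, beside -306 bp for the ligands above, so this exception depends on the cut. Forkhead genes had 5 members below and 2 above of 41 (median 154 bp), and Sox, T-box and Gata genes 1 below, the mesoderm gene T, and 4 above of 36 (median 136 bp). Sox2, a pluripotency and neural factor, covered 2104, 0 and 3734 bp in WT and 6382, 4948 and 4000 bp in HxD.

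Receptor families lay below the whole gene set too. Of 1106 olfactory receptor genes 66, 69 and 69 had a promoter peak in the WT lists and 40, 40 and 55 in the HxD lists. The 57 with a peak in 3 or more lists were tested. As more of them were marked in WT than in HxD, the filter itself favours members that are high in WT, and the following values describe these 57 only. Of these, 23 lay below every WT library (40.4%) and 0 above, their median breadth was 1078 bp in WT and 584 bp in HxD, and their median rank was 58.9 in WT and 33.1 in HxD while that of all genes was 47.1 and 70.7. Olfr130 covered 1062, 1282 and 1116 bp in WT and 0, 280 and 0 bp in HxD, and Olfr368 1926, 1531 and 1922 bp against 0, 926 and 480 bp. These are short peaks whose windows hold a median of 3 CpG. Of 40 glutamate and inhibitory receptor genes 9 lay below (22.5%) and 1 above, with a median of -367 bp: Grin2c, an NMDA receptor subunit, covered 3569, 4134 and 4058 bp against 2673, 2493 and 2402 bp, and Grm5 797, 1602 and 1169 bp against 0, 0 and 0 bp. The exception, Gabra3, is X-linked.

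Clustered protocadherins, the cell surface molecules with a promoter for each variable exon, split. Of 49 tested 12 lay below every WT library (24.5%) and 0 above, yet the median difference was 162 bp, and 27 had a higher mean in HxD. This split was seen in the cut lists. Relative to all genes the median was -22.7 bp there and -444 bp in the lists as deposited. In rank 21 of the 49 (42.9%) lay above every WT library and 5 below (10.2%), beside 22.9% and 1.97% of all tested genes. Pcdhb2 covered 3011, 3013 and 3870 bp in WT and 620, 942 and 1107 bp in HxD, Pcdhb4 3032, 2944 and 3498 bp against 1460, 1279 and 783 bp, and Pcdha7 3324, 3665 and 3998 bp against 1959, 798 and 1949 bp. Members with a higher mean included Pcdha5, with 2011, 1584 and 0 bp against 2385, 1425 and 2219 bp, where the groups overlapped. All protocadherin starts were taken from gene ends, since the promoter table holds none of them.

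Housekeeping families stood on the other side. All 80 cytoplasmic ribosomal protein genes were tested, 24 lay above every WT library (30.0%) and 0 below. Their median breadth was 1375 bp in WT and 1905 bp in HxD, their median difference 655 bp, and their median rank 25.7 in WT and 68.0 in HxD. Rps24 covered 1246, 826 and 0 bp in WT and 3648, 2987 and 2929 bp in HxD, Rpl8 1262, 346 and 1479 bp against 4047, 3173 and 3334 bp, and Rpl24 0, 0 and 0 bp against 2125, 1382 and 1824 bp. In the lists as deposited their median difference still exceeded that of all genes, by 237 bp in place of 470 bp. Of 92 genes of the mitochondrial respiratory chain 15 lay above and 3 below (median 306 bp). Ndufa13 covered 0, 0 and 920 bp against 3104, 2598 and 2190 bp. Of the 3 below, Cox6a2 and Cox4i2 encode tissue-restricted isoforms, with 859, 1100 and 945 bp against 484, 0 and 0 bp at Cox6a2, and the third was Atp5h.

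Chromatin regulators, many of them partners of TET1, lay above every WT library more often than the 10.8% of all genes, except for the H3K9 list. The list of TET1 partner and acetylation genes had 12 of 33 above every WT library (36.4%) and 0 below, with a median difference of 867 bp. Ep300, an acetyltransferase, covered 1457, 400 and 1583 bp in WT and 2822, 2865 and 3074 bp in HxD. Arid4b, of the SIN3 complex, covered 582, 1581 and 609 bp against 3154, 2977 and 2514 bp, and Sin3a and Hdac3 were among the 12. Of 27 H3K4 methyltransferase and demethylase genes 7 lay above (25.9%) and 0 below, with a median of 980 bp, the highest of the 27 lists. They include Hcfc1, a subunit of the SET1 complexes (1271, 0 and 0 bp against 2776, 2843 and 2623 bp), Setd1a, Kdm5b and the X-linked demethylase Kdm5c. Of 42 Polycomb genes 10 lay above and 0 below (median 700 bp): Jarid2 covered 2670, 1561 and 2821 bp against 5495, 5094 and 5189 bp, Eed 0, 0 and 1120 bp against 2417, 1916 and 2025 bp, and Suz12 and Bmi1 were also above. Of 20 H3K9 methylation and imprint protection genes 1 lay above, Setdb1 (0, 0 and 0 bp against 1014, 921 and 864 bp), and 0 below (median 511 bp). In breadth the 4 lists kept their side of the whole gene set under the 15 settings, in the lists as deposited by 243 to 466 bp. In rank the TET1 partner list did not. Its median relative to all genes was 1.00 and ranged from -4.32 to 6.01 without a library. At equal covered length, where the lists differ in peak number, it was -0.276. In rank 6 of its 33 members (18.2%) lay above every WT library and 0 below, beside 22.9% and 1.97% of all tested genes.

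Germline lists were mixed. Of 37 pluripotency and primordial germ cell genes 7 lay above (18.9%) and 2 below, with a median of 365 bp. Pou5f1, which encodes OCT4 and drives the reporter, covered 1861, 1636 and 2270 bp in WT and 3866, 3145 and 2664 bp in HxD, while Esrrb and Fgf4 were the 2 below (Esrrb 2544, 2535 and 3187 bp against 2293, 2172 and 2200 bp). Of 39 prospermatogonial genes 7 lay above and 2 below (median 499 bp). Dazl, an RNA-binding protein of germ cells, covered 0, 1675 and 1013 bp against 3156, 2597 and 2371 bp, and the cell cycle inhibitor Cdkn1b 2638, 2497 and 2891 bp against 4436, 3832 and 4107 bp. As deposited, Dazl covered 2484 bp ± 742 in WT and 2708 bp ± 404 in HxD. The receptor Ret lay below. Relative to the whole gene set the prospermatogonial list turned to the other side in the lists as deposited, at -128 bp. Of 44 meiotic genes 6 lay above, among them Syce1, Msh5 and the histone reader Zcwpw1, and 0 below (median 181 bp), and of 25 piRNA pathway genes 1 lay above and 0 below (median 154 bp). Both lay close to the whole gene set, as did 360 Zfp genes with 43 above and 22 below (median 180 bp). Imprinted genes of paternally methylated regions, which gain DNA methylation in these cells, had 2 of 7 below and 0 above, Igf2 (4361, 4780 and 5194 bp against 2916, 2392 and 3036 bp) and Dio3 (4478, 5690 and 6077 bp against 4130, 3789 and 2362 bp). Their median was -446 bp. The 37 genes of maternally methylated regions had 3 below and 4 above (median 56.7 bp).

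Markers of cell types differed as follows. Of 13 tested Sertoli markers 1 lay below (Fshr) and 1 above (Inhbb), with a median of -386 bp; of 12 Leydig and interstitial markers 0 lay on either side, with a median of -482 bp; and of 7 endothelial and blood markers 1 lay below (Flt1). Of the 9 tested germ cell markers 2 lay above and 1 below (Dnmt3l), with a median of 571 bp. The germ cell median lay above the 184 bp of all tested genes and the medians of the other marker lists below it, while few members lay apart from WT. Relative to all genes the germ cell median became -43.3 bp without WT replicate 3. The part of these markers in the values of the developmental and housekeeping lists was not tested.

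**Figure D4:**
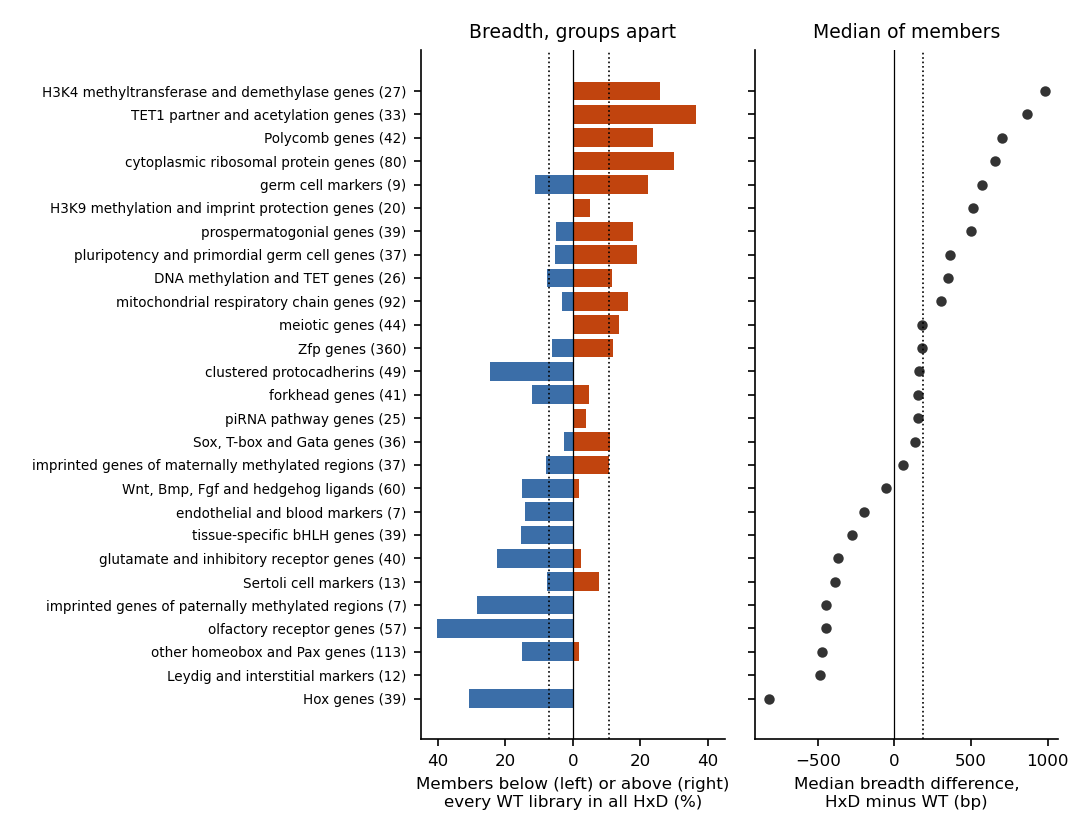
For each gene list (tested members in brackets): the share of members whose breadth lies below or above every WT library in all 3 HxD libraries (left panel, %), and the median breadth difference in bp (right panel). Dotted lines mark all 15035 tested genes, at 7.11% and 10.8% in the left panel and 184 bp in the right.

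Between genes and within gene bodies, the median difference in covered length per region was negative. Peaks of the 6 cut lists merged into 81666 regions, of which 50738 were in at least 3 lists and were tested. None was called in covered length (0%) or rank (0%) by limma at the adjusted threshold, while unadjusted p lay under 0.05 for 5620 shorter and 2123 longer regions (11.1% and 4.18%), and for 2488 lower and 3316 higher ranks (4.9% and 6.54%). The median difference was -315 bp for intergenic regions, -230 bp for gene body regions and 146 bp for promoter regions. Of 25200 intergenic regions, 23.7% lay below every WT library in all 3 HxD libraries and 2.09% above; of 11165 gene body regions 17.7% and 3%; of 14373 promoter regions 7.69% and 10.2%. In the lists as deposited 5607 regions were called shorter and 55 longer.

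Regions present in every WT and no HxD list numbered 1195 (1.46% of all): 951 intergenic (2.04% of that class), 217 in genes (1.11%) and 27 at promoters (0.175%). The reverse held for 782 (0.958%): 362 intergenic (0.775%), 202 in genes (1.03%) and 218 at promoters (1.41%). The intergenic counts as deposited were 5296 and 33. The WT-only intergenic regions lay far from genes, at a median of 187 kb from the nearest coding gene start, against 80.1 kb for all intergenic regions and 46.1 kb for the HxD-only ones. A start of a long noncoding RNA lay within 1 kb of 20 of the 951 (2.1%), 17 of the 362 (4.70%) and 4.19% of all intergenic regions.

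Intergenic regions with the smallest p lay far from coding genes. A region at chr3:23167971-23170467, 951 kb from Tbl1xr1 and 628 kb from Naaladl2, covered 2340, 2117 and 2490 bp in WT and 0, 0 and 0 bp in HxD. A region at chr2:108420495-108423352, between Kcna4 and Mettl15, covered 2598, 2604 and 2851 bp against 0, 267 and 540 bp, and one at chr1:103323515-103326131, between Cntnap5b and Cdh20, 2198, 2212 and 2617 bp against 384, 0 and 0 bp. The shorter regions within genes with the smallest p lay in Adgrb3, a synaptic adhesion receptor (chr1:25177180-25179374, 2003, 1790 and 2100 bp against 0, 0 and 0 bp), Sim1, a hypothalamic factor (chr10:50900073-50905899, 5571, 4247 and 5537 bp against 1753, 2795 and 1141 bp), Baz1a and Zbtb7a. Each had an adjusted p of 0.147. In the lists as deposited HxD replicate 1 covered 1100 bp in Adgrb3 and 1744 bp in Zbtb7a, and the other HxD libraries none. At chr3:23167971-23170467 HxD libraries then covered 798, 0 and 853 bp.

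Among the longer regions were the start of a noncoding RNA and gene bodies. At chr19:5800394-5803598, where the table places the start of the noncoding RNA Malat1, HxD libraries covered 3028, 2102 and 1950 bp and WT libraries 0, 578 and 0 bp. Regions in HxD and no WT list lay between Msra and Kif13b (chr14:64589420-64591488, 1611, 1616 and 1610 bp in HxD) and near Ezh2 (chr6:47650063-47651832, 1728, 1513 and 1643 bp), the latter at the start of the noncoding Gm40371. Longer regions within genes included Grb2, an adaptor of growth factor signalling (chr11:115707044-115709838, 2469, 2646 and 1801 bp against 0, 0 and 0 bp), Ncoa6, and on the X chromosome Bcor, Rhox1 and Stag2. A region in Lin28b, a regulator of let-7 that is expressed in germ cells (chr10:45485215-45487665), covered 2349, 1976 and 867 bp in HxD and none in the cut WT lists. All of these had an adjusted p from 0.147 to 0.15. In the lists as deposited WT libraries also covered 804, 2513 and 2298 bp of the Grb2 region and 935, 1750 and 2069 bp of that between Msra and Kif13b. They covered 0, 1358 and 1767 bp of the Lin28b region, where the groups then overlapped. They also covered 1691, 578 and 735 bp of the Malat1 region and 2226, 1017 and 653 bp of the Bcor region.

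Promoters of the X chromosome stood apart from autosomal ones, a split looked at after the values were seen. Among all coding genes, 253, 209 and 276 X-linked ones had a promoter peak in the cut WT lists and 484, 494 and 397 in the HxD lists. The filter of 3 lists therefore admits X-linked genes largely through HxD, which favours genes that are high there, and the shares of tested genes below are descriptions. Of 450 tested X-linked genes, 51.6%, 44.9% and 55.3% had a promoter peak in the cut WT lists and 94.4%, 93.8% and 84.2% in the HxD lists, against 82.5% to 85.9% and 94.5% to 96.9% of 14582 autosomal genes. The median X-linked breadth was 402, 0 and 666 bp in WT and 1419, 1223 and 922 bp in HxD, which is 20.2% ± 18.1 of the autosomal median in WT and 63.4% ± 7.41 in HxD (n = 3 each, exact p = 0.1). All HxD libraries lay above all WT libraries. Of the X-linked genes 158 (35.1%) lay above every WT library in breadth and 6 (1.33%) below, against 10.0% and 7.29% of autosomal genes. No other chromosome with at least 100 tested genes exceeded 12.7% above. The X also held 69 of the 214 genes with a peak in every HxD and no WT list and 0 of the 29 of the reverse.

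Most tested X-linked promoters lay in the 2 quintiles of lowest mean breadth. In the quintile of tested genes with the lowest mean breadth, 37.7% of 324 X-linked genes lay above every WT library against 13.5% of 2680 autosomal genes, and in the next quintile 39.1% of 69 against 11.2% of 2938. In the 3 wider quintiles the shares were 14.7% of 34, 16.7% of 18 and 20% of 5 X-linked genes, against 8.68%, 8.6% and 8.5% of autosomal genes. Named X-linked genes above every WT library included Cited1, Dlg3, a synaptic scaffold, Hcfc1, Kdm5c, Ndufb11, Rps4x, Sox3 and Rhox13. In the lists as deposited the contrast was gone: X-linked breadth was 55.6% ± 8.25 of autosomal in WT and 58.5% ± 6.83 in HxD (exact p = 0.6), and 84.9% to 97.9% and 83.7% to 94.2% of the 570 X-linked genes that pass the filter there had a peak. KO libraries, beside the same WT libraries, had X-linked breadth of 60.2%, 71.0% and 80.8% of autosomal in the cut lists. X-linked promoter peaks were therefore called in WT but lay low in the order of the WT lists.

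**Figure D5:**
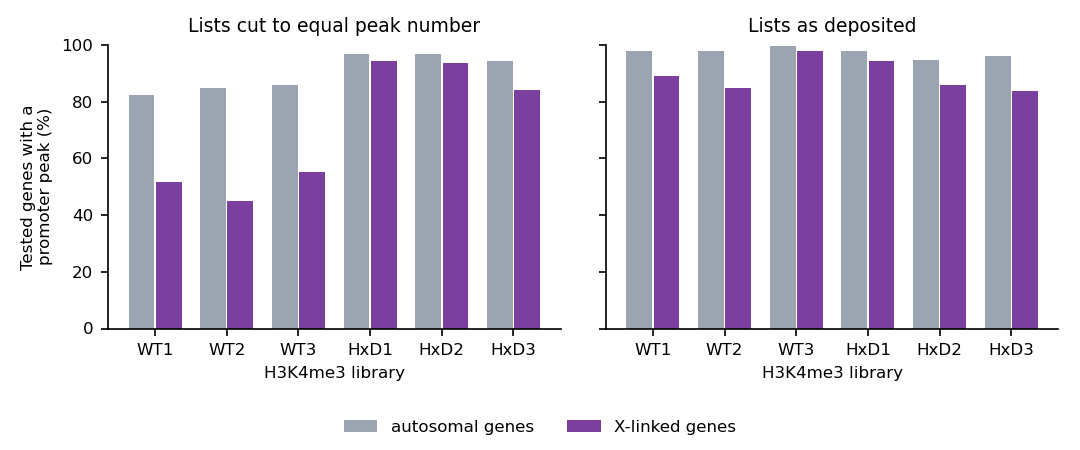
Share of tested genes with a promoter peak (%) in each library for autosomal and X-linked genes, in lists cut to equal peak number (left) and as deposited (right). In the cut lists X-linked shares are 44.9% to 55.3% in WT and 84.2% to 94.4% in HxD.

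Sequence composition moved with both readouts. With tested genes split into quintiles by GC content of the promoter window, the median breadth difference went from 54.2 bp in the lowest quintile (29% to 54% GC) through 130, 202 and 255 bp to 360 bp in the highest (70% to 89.3% GC). The median rank difference went from 15.6 to 26.2 over the same quintiles, so it was positive in each. Promoters below every WT library were 10.3% of the lowest and 4.02% of the highest quintile, and those above 8.83% and 14.2%. The part of base composition in the family values was not tested.

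The targeted gene and its relatives kept their promoter peaks. Tet1 covered 1963, 2415 and 3315 bp in WT and 3495, 3260 and 2580 bp in HxD, a difference of 547 bp ± 473 (SE, limma adjusted p = 0.683). A promoter mark does not report on a change in the catalytic domain, so this does not check the labels. Tet1 ranked at 75.7, 1.24 and 48.7 in WT and at 99.8, 100 and 98.8 in HxD. Tet2 differed by 354 bp ± 570 and Tet3 by 268 bp ± 449, and of the methyltransferases Dnmt3a by -419 bp ± 386 and Dnmt3b by 351 bp ± 668; for these 4 genes the libraries of the genotypes overlapped. Dnmt3l, the cofactor of DNMT3A in male germ cells, was the exception: it covered 1625, 1292 and 1435 bp in WT and 451, 498 and 1066 bp in HxD (-779 bp ± 315, adjusted p = 0.364). Of the 26 tested genes of DNA methylation and TET proteins 3 lay above every WT library, among them Cdca7 and Mbd3, and 2 below, Dnmt3l and Gadd45g, with a median of 353 bp. Cdca7, which the methylation machinery needs at heterochromatin, covered 531, 1059 and 844 bp against 2504, 2218 and 2392 bp.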

How the data were processed

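Per the labels, H3K4me3 was profiled by CUT&RUN in E17.5 prospermatogonia; the submitters' processing notes name MACS2 2.1.0, deepTools 3.5.1, Bowtie2 2.5.0, Trim Galore, bedtools 2.27.1, SAMtools 1.16.1 and the build mm10, with no role or order. The authors deposited 1 MACS2-style peak list per library, with a score, a fold enrichment (linear ratio) and −log10 p and −log10 q values per peak, all the authors' own; their smallest −log10 q was 2.00 to 2.02. Depth is unknown, and IgG libraries were not used here. The use of IgG in peak calling and any pooling of animals were not stated in the labels.

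Lists were cut to 49624 peaks by −log10 q. Gene starts came from the RefSeq promoter table (GRCm38.p6) for 17492 of 21887 coding genes, taking for each gene the start with most covered bp over the 6 cut lists; for the other 4395 the gene end with more covered bp was used, which can be a neighbour's promoter. Promoter windows are 1 kb, and breadth 5 kb, on either side. Breadth, rank and region length were fitted with limma 3.58.1 in R 4.3.3 (eBayes with trend, Benjamini-Hochberg, threshold 0.05); values per list were tested by exact permutation, two-sided. On simulated lists the breadth test recovered 1.49% of changes of 1000 bp, 20.9% of 2000 bp and 81.8% of 4000 bp over 15035 genes, and the test of region length 0%, 23.9% and 93.9% over 50738 regions. Other steps used Python 3.11.15, numpy 2.4.6, pandas 2.3.3 and scipy 1.17.1.

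Named genes were the 10 with the smallest p in each direction for breadth and rank, the 10 of longest breadth by presence, up to 4 members of each list in each direction, 5 gene body and 5 intergenic regions in each direction, and 8 fixed genes (Tet1, Tet2, Tet3, Dnmt3a, Dnmt3b, Dnmt3l, Pou5f1 and Nanog); predicted genes were left out of the ranking by p. Other names were chosen after their values were seen. The comparison, the 27 lists and the rules were chosen with earlier results of these data known. At most 6 peaks were identical in any pair of lists. Same-numbered WT and HxD libraries did not deviate together, so replicate numbers were not used as pairs. The X to autosome comparison was added after the values were seen. The alternatives were lists as deposited, lists cut to equal covered length, 25000 peaks, a cut by fold, each library left out, a replicate block, KO libraries in the fit, no filter, a peak required in all 6 lists, a 2 kb window, a region overlap of 200 bp, and each library centred on its mean breadth.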

Additional observations from a re-analysis of the deposited data

How the results depend on the processing

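Besides the cut to equal peak number, values were recomputed on the lists as deposited, with equal covered length, with 25000 peaks, with a cut by fold, without each library and with other fits. The causes of the shifts below were not tested, beyond the fewer samples of a left-out library. Values are HxD minus WT unless counts. The gene body share (1.51 points) became -1.54 with 25000 peaks, promoter length (2.89 Mb) -0.919 Mb as deposited, and marked genes (1930) -574 as deposited. Median promoter peak length (48.7 bp) became -41 bp at equal length and -16 bp with 25000 peaks (-90 to 164 bp without a library), and gene body rank (0.316) -28.7 as deposited, where lists of unequal length make ranks incomparable, and -3.0 with 25000 peaks (-0.692 to 0.912).

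Promoters called broader numbered 2, against 0 as deposited, 689 at equal length, 1021 with 25000 peaks, 0 by fold, 8 with KO libraries in the fit, 0 without the filter, 0 with a 2 kb window, 0 with centred libraries and 0 to 0 without a library. Replicate numbers did not pair the libraries (correlations -0.0123, 0.0392 and -0.0270), and with the replicate block 0 promoters were called (Ncor1 adjusted p 0.286). Promoters called narrower numbered 0, against 15 at equal length and 45 with 25000 peaks. Regions called shorter numbered 0, against 5607 as deposited, 796 with 25000 peaks and 655 with KO in the fit; longer 0, against 55, 1085, 208 and, without the filter, 4.

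WT-only promoters (29) were 117 as deposited, 49 with 25000 peaks and 50 to 61 without a library; WT-only promoter regions (27) 121, at equal length 15, with 25000 peaks 45 and 45 to 61; gene body regions (217) 1201, at equal length 98 and 370 to 469; intergenic regions (951) 5296, at equal length 453 and 1357 to 1981. HxD-only promoters (214) were 10 as deposited, 797 at equal length, 1143 with 25000 peaks and 240 to 575 without a library; promoter regions (218) 12, 760, 1041 and 251 to 563; gene body regions (202) 25 and 346 to 574; intergenic regions (362) 33, with 25000 peaks 201 and 642 to 885.

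Some list medians relative to all genes reversed. In breadth (bp), forkhead (-30.3) became 284 at equal length, 262 with 25000 peaks, 142 by fold, 11.7 with 2 kb and -131 to 26.7 without a library. Sox, T-box and Gata (-48.2) became 36 at equal length, 64.7 with 2 kb and -253 to 106. Protocadherins (-22.7) became 232, 559, 57.7 and 5 under the 4 settings named for forkhead, and -229.5 to 157. Zfp (-4.67) became 23 as deposited, 0.333 at equal length, 0 by fold, 32.3 without the filter and -0.75 to 20.9. Meiotic (-3.67) became 9.67 at equal length, 77 with 25000 peaks, 27 without the filter and -89.8 to 46.1. Without a library piRNA (-30.3) ranged from -196 to 129, prospermatogonial (314) from -43.3 (without WT replicate 3) to 260.5 (-128 as deposited), maternally imprinted (-128) from -290.3 to 105.5 (62.3 with 2 kb) and germ cell markers (387) from -43.3 to 1052.

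In rank, forkhead (-0.42) became 2.14 at equal length, 1.34 with 25000 peaks, 0.79 without the filter and -13.4 to 2.52 without a library; protocadherins (2.81) -2.15 as deposited, -5.99 without the filter and -6.9 to 10.3; meiotic (0.951) -0.495 as deposited and -2.94 with 25000 peaks; piRNA (-5.71) 2.42 at equal length, 0.0507 with 25000 peaks and -9.86 to 1.14. With a peak required in all 6 lists, prospermatogonial (1.11) became -2.06 (-2.25 to 1.14), pluripotency (-1.1) 1.71 (1.47 as deposited, -5.93 to 10.0), maternally imprinted (-3.42) 1.86 (0.62 at equal length), germ cell markers (-3.22) 3.42 (5.74 at equal length, 1.48 by fold, -15.1 to 13.4) and Sertoli markers (-1.39) 4.88 (-21.7 to 8.47). At equal length TET1 partners (1) became -0.276 (-4.32 to 6.01) and paternally imprinted (-3.65) 1.41 (2.91 with 25000 peaks, -15.2 to 1.44). Ranks at equal length and as deposited come from lists that differ in peak number, which limits their comparison. Among genes, Tet2 breadth (354 bp) ranged from -204 to 792 without a library, Tet3 (268) from -222 to 562 (-9 as deposited) and Dnmt3b (351) from -430 to 862 (-62.3 as deposited), and Tet3 rank (27.7) from -1.49 to 44.6.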
